A study of Mus musculus with 4 samples.

Results

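The genes described here are 10 genes of antigen presentation, chosen by their symbols: Cd74, H2-Aa, H2-Ab1, H2-Eb1, H2-DMa, Ciita, B2m, Tap1, Tap2 and Psmb8. Of these, 9 could be followed across the 15500 genes of the expression table, and Ciita was not analysed here. The choice was made with values of these same libraries in view, so all levels and differences below are descriptions. Tissue labelled as liver came from male mice of the Kunming stock, bought at 5 weeks of age and acclimated for 1 week. The Vehicle mice ate chow with 1.5% (w/w) linoleic acid, and the CLA mice ate chow with 1.5% (w/w) conjugated linoleic acid, a mixture of isomers of linoleic acid, for 28 days. Vehicle injections are stated only as given where appropriate. The GW6471 mice ate the linoleic acid diet and received daily intraperitoneal injections of 20 mg/kg of GW6471, an antagonist of the fatty acid receptor PPARα. The CLA+GW6471 mice received both the CLA diet and the antagonist, so linoleic acid and not plain chow was the common baseline. The paper states 6 mice per group for a control and a CLA group, and describes no mice given GW6471. The table holds 1 library per condition, and it is not stated whether RNA of several mice was pooled.

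In the mm9 assembly, 7 of the 10 genes lie in the MHC region of chromosome 17, between positions 34272127 and 34453144, a stretch of 181 kb (GENCODE vM1). Cd74 lies outside it on the plus strand of chromosome 18, from 60963502 to 60972300. B2m lies on the plus strand of chromosome 2, from 121973422 to 121978819. The 3′ ends of H2-Ab1 and H2-Aa, on opposite strands, overlap by 88 bp, and Tap1 overlaps the neighbouring proteasome gene Psmb9 by 200 or 212 bp, depending on the gene model. Reads in these overlaps cannot be told apart without strand, and use of strand is not stated.

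Cells display peptides to T cells on 2 kinds of MHC molecule. Class I molecules consist of a heavy chain and the small subunit β2-microglobulin, and carry peptides that proteasomes cut in the cytosol and that the TAP transporter brings into the endoplasmic reticulum. Class II molecules are pairs of α and β chains that assemble on the invariant chain, encoded by Cd74, and exchange a remnant of it for peptides of endocytosed proteins with the help of the DM molecule. In liver, class I is made by nearly all cells, while class II is known mainly from Kupffer cells, dendritic cells and B cells and can be induced by interferon-γ through the coactivator CIITA.

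Promoter sequences of 6 of the genes were found in a RefSeq table of 32851 windows, each of 250 bases before to 50 after a transcript start (GRCm38.p6, the C57BL/6J reference and not the Kunming stock). They were H2-Aa, H2-Eb1, H2-DMa, B2m, Tap1 and Psmb8, and Cd74, H2-Ab1, Tap2 and Ciita were not matched. Windows of 3 of them are shown, because H2-Eb1 differed between the libraries while H2-Aa was near 0 and B2m was high in each, and because the X and Y boxes are the textbook elements of class II promoters, while IRF and NF-κB elements are those of B2m. Only bases before the transcript start are printed, 5′ to 3′ on the gene's strand. In H2-Eb1 (chr17:34305747-34305866, plus strand) and H2-Aa (chr17:34287824-34287943, minus strand) the capitals mark the Y box TGATTGG and, in H2-Eb1, also a match to the X box, searched as CCNAG, any 2 bases, AC, any base and GATG with up to 2 mismatches. In B2m (chr2:122147527-122147686, plus strand) they mark the IRF element, searched as GAAA, any 2 bases and GAAA, and 2 overlapping matches on opposite strands of the NF-κB element, searched as GGG, any 5 bases and CC.
H2-Eb1: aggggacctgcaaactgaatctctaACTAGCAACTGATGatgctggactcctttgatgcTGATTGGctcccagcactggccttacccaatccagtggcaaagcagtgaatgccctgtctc
H2-Aa: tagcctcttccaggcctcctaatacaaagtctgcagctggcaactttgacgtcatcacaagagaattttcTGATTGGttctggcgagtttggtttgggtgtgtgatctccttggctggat
B2m: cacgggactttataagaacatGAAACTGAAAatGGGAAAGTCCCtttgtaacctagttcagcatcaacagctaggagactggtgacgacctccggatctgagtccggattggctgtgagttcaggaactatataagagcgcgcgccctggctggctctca

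The Y box was present in H2-Eb1, at bases -61 to -55 before the start, in H2-Aa, at -50 to -44, and in Tap1, on the opposite strand at -222 to -216. It was found in 7.82% of all windows. The X box matched with 1 mismatch in H2-Eb1, at -95 to -82, and in Tap1, and with 2 mismatches in B2m, against 22.9% of all windows. H2-Aa held the Y box without a match to these X box letters in its window. A search with these letters can miss an X box, so this does not show that H2-Aa lacks one. The IRF element, at -139 to -130, was found in B2m alone of the matched genes and in 3.44% of all windows. The GAS element TTCNNNGAA, at -97 to -89 in Psmb8, was found in 8.3% of them. The NF-κB letters were common, with matches in 50.8% of all windows and in each matched gene except Psmb8. Both strands were searched throughout, and a match of letters is not evidence of binding.

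Values are FPKM, which divides fragments by transcript length and by the mapped total of a library, so levels can be compared between genes. The libraries were alike in size, with FPKM sums of 497015 to 522893 and an estimated 18850000 to 19290000 reads. Differences are log2 ratios of FPKM + 0.1, which understates the change of low genes, and a gene with a mean of at least 1 FPKM was called higher or lower from 1.5-fold. The 95% counting intervals are exact Clopper-Pearson intervals of the ratio without the added 0.1, from reads estimated with transcript length, and cover counting error only. Each condition had 1 library, so neither a replicate error nor a test could be had, and each difference describes these libraries. Fewer cells of a type and less RNA per cell cannot be told apart in such bulk samples. The markers of the labelled tissue, liver, were mixed: some were well expressed and others near 0, and the tissue is called liver here by its label. Of 14 hepatocyte genes 13 were analysed, and 5 had a mean of at least 1 FPKM. Alb stood at 620.17 to 1321.55 FPKM, Trf at 219.56 to 351.19, Fgb at 35.68 to 138.03, Ass1 at 16.64 to 25.92 and Apob at 2.28 to 3.93, but Ttr, Fga, Cps1 and Cyp2e1 stayed at or below 0.11 FPKM in each library. Apoa1, Tat, Serpina1c and Tdo2 also had means below 1 FPKM. The 3 pan-leukocyte genes analysed, Ptprc, Coro1a and Cd52, stood at 0.12 FPKM at most. Among keratins of simple epithelium, Krt18 had 1170.68 to 1358.59 FPKM and Krt8 403.01 to 491.46, but Krt7 had 23.47 at most and Krt19 0.28. The gene with the highest mean was Sprr1a, which encodes a protein of the cornified envelope of squamous epithelium, at 15810 to 26116 FPKM, and it is named after its values were seen.

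The genes differed widely in level, and B2m stood far above the others. B2m, which encodes β2-microglobulin, had a mean of 1567 FPKM, above 99.7% of the listed genes. The transporter and proteasome genes were in the middle of the range, at a mean of 14.6 FPKM for Tap1, 12.5 for Psmb8 and 5.99 for Tap2, where the median over all listed genes was 5.97. Cd74 had a mean of 5.66 FPKM and H2-Eb1 of 3.49. The remaining class II genes were lower, with means of 1.32 FPKM for H2-Ab1, 0.598 for H2-DMa and 0.0625 for H2-Aa. A mean of 1 FPKM was thus reached by 7 of the 9 genes, and H2-DMa and H2-Aa were not eligible for a call. The plot of FPKM by library shows these steps.

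**Figure D1:**
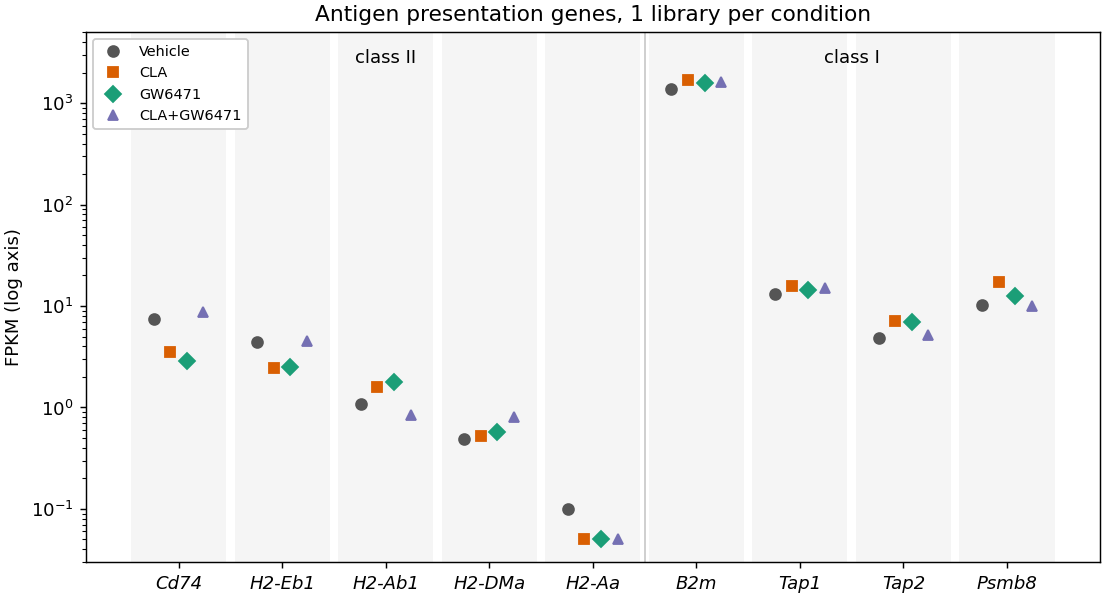
FPKM of the 9 genes on a log axis, with 1 symbol for each library of Vehicle, CLA, GW6471 and CLA+GW6471 and no error bars, since each condition has 1 library. B2m sits between 1389.45 and 1686.31 FPKM, and H2-Aa at 0.1 FPKM or less.

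Cd74, the invariant chain that guides class II assembly, had the widest range among the genes that reached 1 FPKM. It stood at 7.41 FPKM in Vehicle, 3.52 with CLA, 2.88 with GW6471 alone and 8.81 with both. The 2 libraries with a single treatment were low and those with none or both were high, and the highest was 3.06 times the lowest. Neighbours within each pair lay within counting error: the log2 ratio of CLA+GW6471 to Vehicle was 0.25 (95% counting interval -0.026 to 0.53) and that of GW6471 to CLA was -0.28 (-0.74 to 0.16).

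H2-Eb1, the β chain of the class II molecule I-E, followed the same order of pairs. It had 4.44 FPKM in Vehicle, 2.47 with CLA, 2.51 with GW6471 alone and 4.53 with both. The high pair was again Vehicle and CLA+GW6471, and within each pair the log2 ratios were 0.028 (-0.39 to 0.44) and 0.022 (-0.55 to 0.57). Its profile, centred over the 4 libraries, differed from that of Cd74 by a root mean square of 0.28 (log2), number 29 of 10354 genes in order of likeness to Cd74.

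H2-Ab1, the β chain of the class II molecule I-A, ran the other way. It had 1.08 FPKM in Vehicle, 1.59 with CLA, 1.77 with GW6471 alone and 0.85 with both, which is an estimated 25, 36, 41 and 20 reads. The single-treatment libraries were the high ones here, and H2-Ab1 was number 10089 of 10354 in likeness to Cd74. With so few reads, its differences from Vehicle lay within counting error, at a log2 ratio of 0.52 in CLA (-0.25 to 1.32) and 0.66 in GW6471 (-0.057 to 1.47).

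H2-Aa encodes the α chain that pairs with the product of H2-Ab1. It was listed at 0.10 FPKM in Vehicle and at 0.05 in each of the other libraries, an estimated 2 reads and 1 read. These lie under the limit of 3 reads, and no ratio is given. H2-DMa, the α chain of the peptide editor DM, had 0.49 FPKM in Vehicle, 0.52 with CLA, 0.57 with GW6471 alone and 0.81 with both. The highest value was 1.65 times the lowest, and all of its ratios lay within counting error, including that of CLA+GW6471 to Vehicle at 0.63 (log2, -0.26 to 1.81). The genes for H2-DM, H2-O and a further I-E β chain that were listed beside the members, H2-DMb1, H2-DMb2, H2-Oa and H2-Eb2, had at most 1.03 FPKM. Apart from Cd74, H2-Eb1 and H2-Ab1, no gene for a class II, DM or DO chain analysed had a mean of 1 FPKM.

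Among the 4 class I members, B2m and Tap1 had the narrowest ranges. B2m had 1389.45 FPKM in Vehicle, 1686.31 with CLA, 1592.27 with GW6471 alone and 1598.47 with both, so Vehicle was the low library and the other 3 lay close together. Tap1, a subunit of the peptide transporter, had 13.13, 15.67, 14.30 and 15.18 FPKM in the same order. The highest library exceeded the lowest by 1.21 times for B2m and 1.19 times for Tap1. Tap2, the other subunit of that transporter, had 4.81 FPKM in Vehicle, 7.09 with CLA, 6.91 with GW6471 alone and 5.16 with both. Unlike Tap1 it was high in both single treatments, with 1.47 times between the extremes. Psmb8, a catalytic subunit of the immunoproteasome, had 10.24 FPKM in Vehicle, 17.25 with CLA, 12.52 with GW6471 alone and 9.99 with both. CLA stood above the other libraries, and Vehicle and CLA+GW6471 were level with an estimated 314 reads each.

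CLA was first compared with Vehicle, which asks what the diet did without the antagonist. Cd74 and H2-Eb1 were called lower and Psmb8 was called higher, while Tap2 fell just short of the call and B2m and Tap1 were slightly higher. Over all 10355 genes with a mean of at least 1 FPKM, 4.97% were called lower and 7.34% higher. The log2 ratio of Cd74 was -1.05 (-1.44 to -0.71), and 0.56% of those genes had a lower one. H2-Eb1 had a log2 ratio of -0.82 (-1.35 to -0.36) and Psmb8 one of 0.75 (0.55 to 0.96). Just inside and outside the call of 1.5-fold were Psmb8, at 1.68-fold, and Tap2, at 1.46-fold with a log2 ratio of 0.55 (0.35 to 0.77). B2m was higher by a log2 ratio of 0.28 (0.25 to 0.30) and Tap1 by 0.25 (0.11 to 0.40). The median over the 7 genes with a mean of at least 1 FPKM was 0.28, against -0.0071 over all genes tested. Of the 8 genes with a ratio 6 lay above 0, among them H2-Ab1 at 0.52 and H2-DMa at 0.072, both within counting error.

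GW6471 was then compared with Vehicle, both on the linoleic acid diet. Cd74 and H2-Eb1 were again lower, H2-Ab1 was called higher, and the class I genes lay above Vehicle. Calls over all genes were 2.11% lower and 3.29% higher. Cd74 had a log2 ratio of -1.33 (-1.75 to -0.97), with 0.058% of the genes tested below it, and H2-Eb1 one of -0.80 (-1.34 to -0.35). The call of H2-Ab1 at 1.58-fold was within its counting interval, ended with a pseudocount of 1, at a log2 ratio of 0.41, and was not detectable as a difference at this depth. Tap2 had a log2 ratio of 0.51 (0.31 to 0.74), Psmb8 of 0.29 (0.073 to 0.51), B2m of 0.20 (0.17 to 0.22) and Tap1 of 0.12 (-0.024 to 0.27). This comparison shares the Vehicle library with the former, so a value of that library enters both.

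On the CLA diet, the addition of GW6471 went with the opposite differences. Against CLA alone, Cd74 and H2-Eb1 were called higher in CLA+GW6471, where 6.85% of all genes were, and H2-Ab1 and Psmb8 were called lower, where 9.17% were. The log2 ratio of Cd74 was 1.30 (0.97 to 1.68) and that of H2-Eb1 was 0.85 (0.39 to 1.37). H2-Ab1 had a log2 ratio of -0.83 (-1.75 to -0.052), and its call ended with a pseudocount of 1, at -0.49. Psmb8 had a log2 ratio of -0.78 (-0.99 to -0.58). Tap2 was at -0.45 (-0.66 to -0.25), short of a call. Tap1 at -0.046 (-0.18 to 0.091) and B2m at -0.077 (-0.10 to -0.053) were close to 0. The median over the 7 genes was -0.077, against 0.0090 over all genes tested.

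In the presence of GW6471, CLA+GW6471 was compared with GW6471. Cd74 and H2-Eb1 were called higher and H2-Ab1 lower, with 2.83% and 3.89% of all genes called in those directions. Cd74 had its largest difference here, 2.99-fold, with a log2 ratio of 1.58 (1.23 to 1.99), and 99.95% of the genes tested had a lower one. H2-Eb1 had a log2 ratio of 0.83 (0.38 to 1.36) and H2-Ab1 one of -0.98 (-1.90 to -0.25), a call that also ended with a pseudocount of 1, at -0.58. Tap2 at -0.41 (-0.63 to -0.21) and Psmb8 at -0.32 (-0.54 to -0.11) were lower without a call, and B2m was at 0.0056 (-0.019 to 0.030), or -0.060 when the libraries were scaled to a common FPKM sum. The remaining pairs of libraries gave no call among the members. CLA+GW6471 and Vehicle differed least, with 0.512% of all genes called higher and 0.628% lower, and GW6471 against CLA had 1.48% higher and 2.15% lower. In the latter, Psmb8 was lower by a log2 ratio of -0.46 (-0.65 to -0.27), short of a call. The plot of log2 ratios sets the 4 other comparisons side by side.

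**Figure D2:**
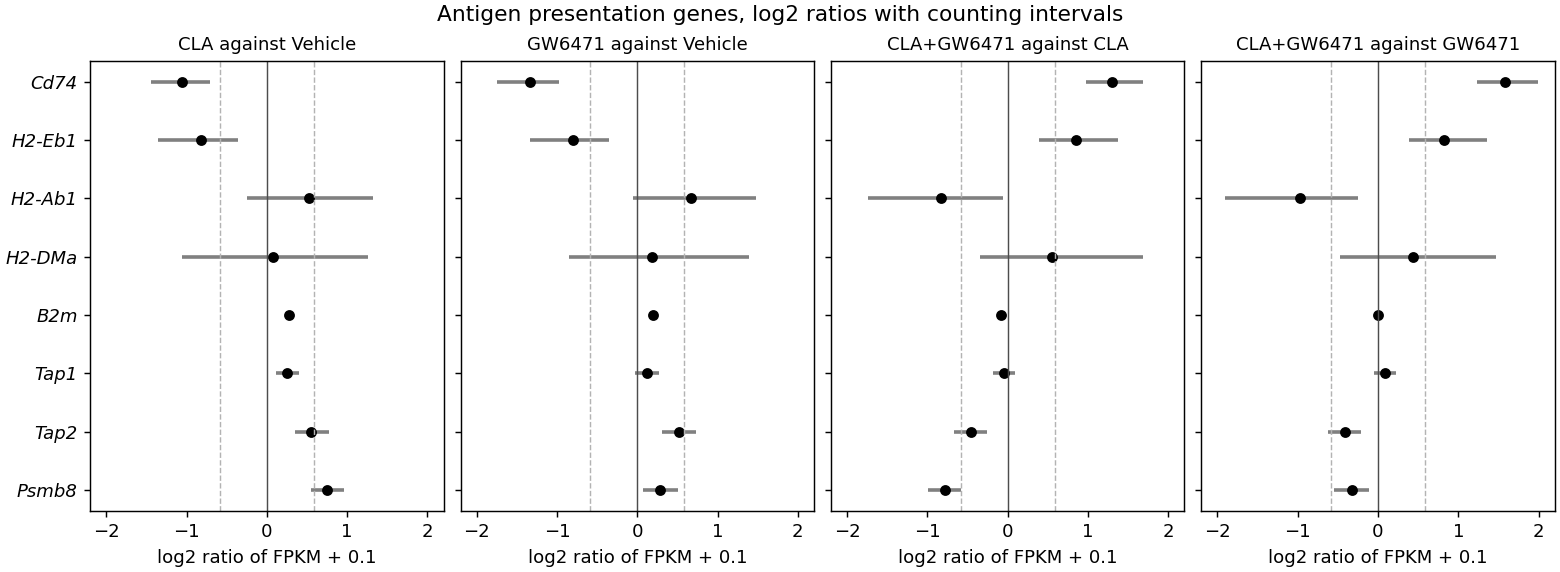
Log2 ratios of FPKM + 0.1 (points) with 95% counting intervals (bars) for 8 genes in 4 comparisons, with dashed lines at 1.5-fold; H2-Aa is left out because it had 2 reads at most. Cd74 lies at -1.05 and -1.33 in the comparisons with Vehicle and at 1.30 and 1.58 in those of the combined treatment, and intervals are wide for H2-Ab1 and H2-DMa and narrow for B2m.

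CLA with and without GW6471 could be set side by side in comparisons that share no library. The log2 ratio that went with CLA had opposite signs for Cd74, H2-Eb1, H2-Ab1, Tap2 and Psmb8, and the same sign for B2m, Tap1 and H2-DMa, where the sign for B2m turned with the scaling given above. Cd74 and H2-Eb1 were called in opposite directions, 2 of the 7 genes that could be called, where 4.42% of all genes were. No member was called in the same direction in both, as were 0.0579% of all genes. Among all genes called in both comparisons, 458 had opposite directions and 6 the same, so reversal was the rule and not a trait of these genes. The log2 ratio of CLA+GW6471 to GW6471 minus that of CLA to Vehicle was 2.63 for Cd74, and 99.6% of the genes tested had a smaller one in absolute size. For H2-Eb1 it was 1.65, and H2-Ab1 went from 0.52 to -0.98, the reverse of Cd74. Psmb8 at -1.07 and Tap2 at -0.96 were also below 0, and B2m was at -0.27 and Tap1 at -0.17, with 25.0% of the genes tested smaller than Tap1 in absolute size. The difference between conditions was not tested, as each has 1 library. The plot of the CLA difference without and with GW6471 shows Cd74 and H2-Eb1 apart from the class I genes.

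**Figure D3:**
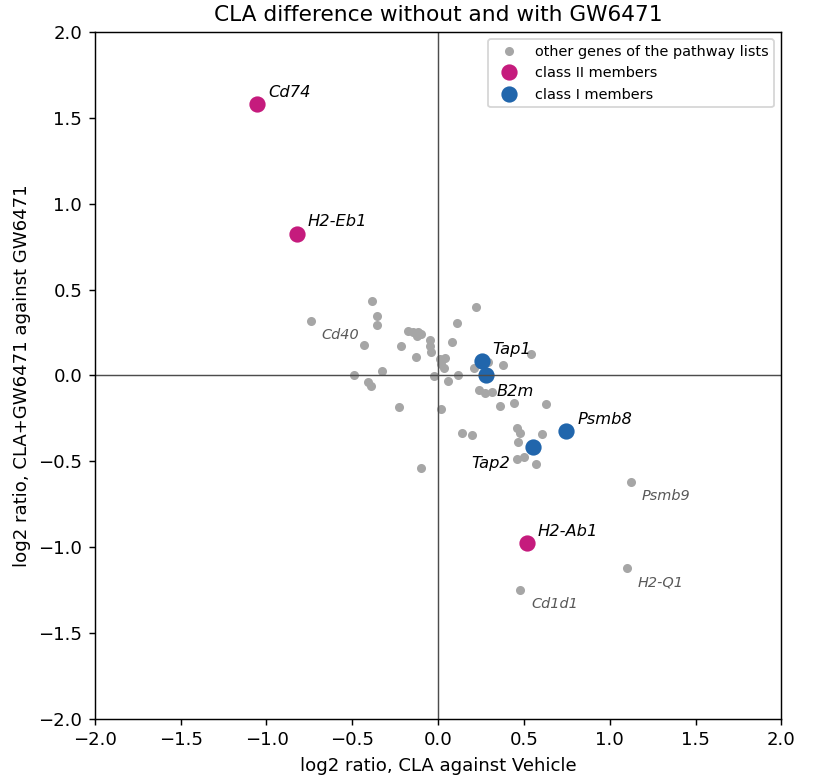
Each point is a gene with a mean of at least 1 FPKM, plotted by its log2 ratio of CLA to Vehicle (x) and of CLA+GW6471 to GW6471 (y), with the 3 class II members in pink, the 4 class I members in blue and 55 other genes of antigen presentation in grey. Cd74, at -1.05 and 1.58, and H2-Eb1, at -0.82 and 0.83, lie at the upper left, and H2-Ab1, Psmb8 and Tap2 at the lower right.

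The genes most like Cd74 over the 4 libraries, by the root mean square difference of centred log2 values among 10310 genes, were Icam2, Krtap5-5, Pbp2, Rnf39 and Madcam1. Icam2 was the closest, with 3.50 FPKM in Vehicle, 1.56 with CLA, 1.34 with GW6471 alone and 3.84 with both, a difference of 0.052 (log2). The fifth, Madcam1, differed by 0.17. With 4 points, such likeness is a description of these libraries.

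The other genes of the pathway numbered 86, of which 76 were analysed and 55 reached 1 FPKM. In CLA against Vehicle, 4 were called higher (H2-Q1, H2-T22, Psmb9 and Mif) and 1 lower (Cd40). These were 7.27% and 1.82% of the 55, against 7.34% and 4.97% of all genes, so the share called higher was close to that of all genes. In GW6471 against Vehicle 2 were called higher (H2-Q1 and Psmb9), 3.64% against 3.29% of all genes, and 0 lower, against 2.11%. In CLA+GW6471 against CLA 2 were higher (Rfxap and Cd40), 3.64% against 6.85% of all genes, and 8 lower, 14.5% against 9.17%. In CLA+GW6471 against GW6471 0 were higher, against 2.83% of all genes, and 3 lower (H2-Q1, Cd1d1 and Psmb9), 5.45% against 3.89%. Genes named here outside the most abundant of each group were chosen after their values were seen. Among class I heavy chains, H2-D1 had 340.39 FPKM in Vehicle, 402.24 with CLA, 366.33 with GW6471 alone and 345.58 with both, and none of its ratios reached a call. H2-K1, which like H2-D1 encodes a classical heavy chain, was listed at 0.06 FPKM or less in each library. Reads of class I heavy chains are uncertain, because the genes are near-identical copies that differ between mouse stocks, and the share of reads lost or exchanged was not tested. H2-Q1 had 12.46, 26.81, 22.78 and 10.41 FPKM in Vehicle, CLA, GW6471 and CLA+GW6471, and was called in all 4 comparisons, higher against Vehicle and lower in the combined treatment. H2-T23, H2-T22, Mr1 and Cd1d1, nonclassical members that present to specialised T cells and natural killer cells, were called lower with H2-Q1 in CLA+GW6471 against CLA.

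Of the 6 further genes of the immunoproteasome and its activator, 1 was called higher when CLA was set against Vehicle, where 7.34% of all genes were, 2 were called lower when both treatments were set against CLA, where 9.17% were, and Pomp, Psme1, Psme2 and Psme3 were not called in any of the 4 comparisons. Psmb9, the immunoproteasome subunit that is the neighbour of Tap1, had 2.44 FPKM in Vehicle, 5.43 with CLA, 3.73 with GW6471 alone and 2.39 with both, and was called in all 4 comparisons. CLA was the highest library, as for Psmb8, and CLA+GW6471 the lowest. Psmb10, the remaining inducible catalytic subunit, had 11.34, 14.61, 10.57 and 9.32 FPKM and was called lower in CLA+GW6471 against CLA. With 2.11% to 9.17% of all genes called in a given direction, none of the 3 constitutive counterparts was called in any of the 4 comparisons, and Psmb6, the highest, had 133.81 to 147.23 FPKM. Of the 8 loading genes Pdia3 alone was called, lower in CLA+GW6471 against CLA as were 9.17% of all genes, at 296.08 FPKM in CLA and 189.60 in CLA+GW6471. Tapbp, which bridges TAP and the class I molecule, had 18.12, 25.06, 24.86 and 18.97 FPKM, high in the same pair of libraries as Tap2, and like Tap2 it was not called.

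Of 9 proteases and related genes of class II peptide processing 7 were analysed, 6 had a mean of at least 1 FPKM and none of these was called in the 4 comparisons, in which 2.11% to 9.17% of all genes were called in a given direction, with Ctsd highest at 466.36 to 539.70 FPKM. Ctss, the protease best known for trimming the invariant chain, was listed at 0.04 FPKM or less. Rfxap, a subunit of the factor that binds the X box, had 8.91 FPKM in CLA and 13.81 in CLA+GW6471. It was called higher there, as were 6.85% of all genes, the only call among 17 regulators of MHC genes. Ifngr1, a chain of the interferon-γ receptor, was the most abundant of them, at 90.90 FPKM in Vehicle and 126.62 in CLA. Nlrc5, the coactivator of class I genes, had 7.61 FPKM in Vehicle, 5.61 with CLA, 5.90 with GW6471 alone and 6.69 with both. Mif, a cytokine that binds CD74 at the cell surface, was called higher in CLA, at 586.80 FPKM against 378.84 in Vehicle, while its coreceptor Cd44 had 161.83 to 173.46 FPKM with no call. Cd40, a costimulatory receptor, was lower in CLA, at 3.09 FPKM against 5.23, and Cd86 was listed at 0.02 FPKM or less.

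Of the markers of cells that usually carry class II, Cd68, Cd14 and Zbtb46 were above 1 FPKM on average and the others analysed were below it. The summed level of 3 B cell genes was 0.98 FPKM in Vehicle, 0.55 with CLA, 0.79 with GW6471 alone and 1.28 with both, the order of pairs seen for Cd74, and it came mostly from Pax5, at 0.47 to 1.13 FPKM. The pattern of the sum rests on Pax5. Cd79a had 0.04 FPKM in Vehicle, 0.08 with CLA, 0.04 with GW6471 alone and 0.15 with both, and Cd79b had 0.04 in Vehicle and GW6471 and was listed at 0 in the others. The part of B cells in the Cd74 values was not tested. Of 14 macrophage and Kupffer cell genes 6 were analysed, and their sum was 48.18 FPKM in Vehicle, 64.61 with CLA, 46.92 with GW6471 alone and 44.53 with both. Its part in the Cd74 values was not tested. Nearly all of it came from Cd68, at 23.43 to 35.64 FPKM, and Cd14, at 19.27 to 27.57, and Cd68 was called higher in CLA against Vehicle at a log2 ratio of 0.60. Csf1r, Lyz2, Emr1 and Cd163 stayed at or below 0.91 FPKM. Of the dendritic cell genes Itgax and Flt3 had 0.01 FPKM at most, and Zbtb46 2.62 to 3.14. Endothelial genes summed to 0.51 to 0.94 FPKM. Of the 6 cholangiocyte and epithelial genes Sox9 alone was called, lower in CLA against Vehicle and higher in CLA+GW6471 against CLA. It had 54.74 FPKM in Vehicle, 34.72 with CLA, 48.67 with GW6471 alone and 57.05 with both. Over all genes, 4.97% and 6.85% were called in those directions. The sum of the hepatocyte genes was 967 FPKM in Vehicle, 1844 with CLA, 1498 with GW6471 alone and 899 with both, high in CLA and GW6471 as for Psmb8 and Tap2. Alb made up most of the sum, and Trf, Fgb and Apob had the same order of libraries as Alb. Of the 5 hepatocyte genes that could be called, 4 were called higher in CLA against Vehicle (Alb, Trf, Fgb and Ass1), as were 7.34% of all genes, and 2 in GW6471 against Vehicle (Alb and Fgb), as were 3.29%. In CLA+GW6471, 4 were called lower against CLA (Alb, Trf, Fgb and Apob), as were 9.17% of all genes, and 3 against GW6471 (Alb, Fgb and Apob), as were 3.89%. The part of hepatocyte RNA in the class I values was not tested either.

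**Figure D4:**
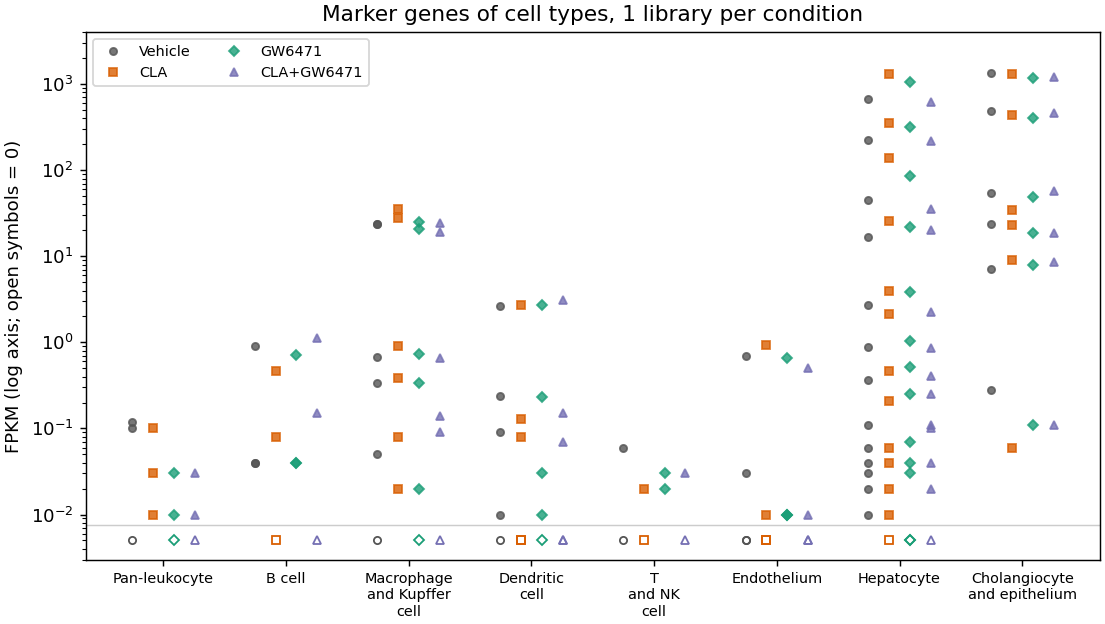
FPKM of marker genes of 8 cell types on a log axis, with 1 symbol per gene and library and open symbols for values of 0. Genes of the pan-leukocyte, T and NK cell and endothelial lists lie below 1 FPKM in each library, while Krt18 in each library and Alb in CLA and GW6471 exceed 1000 FPKM.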

How the data were processed

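RNA of mouse tissue labelled as liver was sequenced for 4 conditions with 1 library each, and samples were grouped by their treatment labels. The authors deposited 1 table of FPKM with 2 decimals. Submitters' processing notes name BWA, Bowtie and Cufflinks and the mm9 build, and tool versions, annotation and gene filter are not given in the sources used here. Since its header names no unit, FPKM was taken from a supplementary sheet that repeats some of its values. The mm9 build is of C57BL/6J mice, so reads of the polymorphic MHC genes were mapped to another strain than the Kunming stock, which can lower or exchange their values.

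The genes, their lists and the comparisons were chosen with earlier results of these data known. The rule for named genes was all 10 members, the 5 genes most like Cd74, and up to 4 of the most abundant genes of each list. Log2 was taken after adding 0.1 to each deposited FPKM. No count model or test was used, since the table holds no counts and no replicates. Depth was estimated from the step of 1 read in low FPKM of 603 genes under 1000 nt with 1 coding transcript, using 146 to 155 values per library. Reads per gene were then FPKM times depth times the longest coding transcript of GENCODE vM1, and they are approximate. Steps were tested on simulated libraries. Alternatives were pseudocounts of 0.01 and 1, 2 scalings, a limit of 2-fold and no filter. Software was matplotlib 3.10.9, scipy 1.17.1, pandas 2.3.3, numpy 2.4.6 and Python 3.11.15.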

Additional observations from a re-analysis of the deposited data

Results flagged for a closer look

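Cd74 and H2-Eb1 were called in opposite directions with CLA, without and with GW6471, as were 4.42% of all genes. Of the 10355 genes tested, 458 were called in opposite directions and 6 in the same direction. Such a reversal was thus not particular to these 2 genes. The log2 ratio of Cd74 was -1.05 for CLA over Vehicle, but 1.58 for CLA+GW6471 over GW6471. H2-Eb1 had log2 ratios of -0.82 and 0.83 in these comparisons. Each was 1.5-fold or more, but those of H2-Eb1 fell short of the alternative limit of 2-fold. The opposite direction was not tested, because each condition has 1 library.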

How the results depend on the processing

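No paired analysis was possible because each condition has 1 library. For the same reason no library could be left out. Of 64 counts, and medians over all 9 genes, under an alternative, 53 stayed within 1.5 times the main count or within the counting interval. With a limit of 2-fold, CLA and GW6471 alone each had 0 genes called higher and 1 lower than Vehicle. CLA+GW6471 had 1 called higher and 0 lower, whether set against CLA or against GW6471 alone. The gene that kept its call was Cd74 each time, and H2-Eb1 lost its call in all 4 comparisons. The share of all genes called at 2-fold was not computed. With a pseudocount of 1, 0 genes were called higher with GW6471 alone, and CLA+GW6471 had 1 called lower than CLA and 0 lower than GW6471, each 1 less than with 0.1, and the gene lost was H2-Ab1 each time. The ratios of single genes that were called kept their sign in all 52 values under the pseudocounts and scalings, which could not have come out otherwise. A pseudocount cannot turn the sign of a ratio, and scaling factors of 0.981 to 1.03 are too near 1 to turn one of 1.5-fold. Depth limits H2-Aa, H2-DMa and H2-Ab1.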
